A study of Homo sapiens with 2 samples.

Results

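The 30 genes described here encode subunits of the SWI/SNF chromatin remodelling complexes, called BAF and PBAF in mammals. They were chosen by name from a list of known subunits, not by any measured value, but with earlier results of these data known. They are 30 of 19974 protein-coding genes on chromosomes 1 to 22 and X. R-loops, structures in which an RNA strand pairs with the DNA template and leaves the other DNA strand single, were mapped in A549, an established human lung cancer line labelled wild type. The method was CUT&Tag, in which an antibody brings a transposase that cuts and tags the DNA nearby. Of the 2 libraries, the one described used S9.6, which recognises hybrids of RNA with DNA. The other used non-specific IgG and was not analysed here. With 1 library there was no replicate, so no difference between genes was tested. Intervals on shares of genes show how loosely a share over few genes is fixed, as if genes were independent draws, and are no test. No control track was set beside the list here, and any use of IgG in calling it is not given. Signal that depends on hybrids was thus not separated from other tagging.

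SWI/SNF complexes use the energy of ATP to slide or eject nucleosomes, which opens promoters and enhancers to transcription factors. Each complex holds core subunits and a single ATPase, SMARCA4 (BRG1) or SMARCA2 (BRM). Further subunits make it canonical BAF, PBAF or non-canonical BAF, and several are exchanged between cell types, as in neurons. A549 cells carry a known inactivating mutation of SMARCA4 and rely on SMARCA2. A peak list holds neither the allele nor the RNA level of a gene, and says only where S9.6 signal passed the authors' threshold.

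For each peak the deposited list gives its total signal, which is coverage summed over the peak, and its maximum coverage. The peak list is shallow: the median maximum coverage was 2 over 45756 peaks on these chromosomes, and 54.6% of them reached at most 2. No peak had a total under 745. Regions with less summed signal are missing from the list, and a gene without a peak may hold signal below that level. Read as a plain count, a maximum of 2 has an exact 95% Poisson interval of 0.242 to 7.22, a maximum of 5 one of 1.62 to 11.7 and a maximum of 9 one of 4.12 to 17.1. Since these overlap, the order of SWI/SNF genes by peak height is a description of this library.

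The DNA just before the annotated start is shown for 6 genes, to set starts inside S9.6 peaks beside starts without one. Each run is the 250 bases upstream of the outermost annotated start, 5′ to 3′ on the gene's strand, from RefSeq on GRCh38.p14, and capitals mark bases inside an S9.6 peak. SMARCB1, SMARCD2, DPF1 and BICRA have a peak at the start, whereas SMARCA4 and ARID1A do not. SMARCB1 lies at chr22:23786716-23786965 on the plus strand, SMARCD2 at chr17:63842686-63842935 on the minus strand, DPF1 at chr19:38229696-38229945 on the minus strand and BICRA at chr19:47607946-47608195 on the plus strand. SMARCA4 lies at chr19:10960780-10961029 and ARID1A at chr1:26695765-26696014, both on the plus strand.
SMARCB1: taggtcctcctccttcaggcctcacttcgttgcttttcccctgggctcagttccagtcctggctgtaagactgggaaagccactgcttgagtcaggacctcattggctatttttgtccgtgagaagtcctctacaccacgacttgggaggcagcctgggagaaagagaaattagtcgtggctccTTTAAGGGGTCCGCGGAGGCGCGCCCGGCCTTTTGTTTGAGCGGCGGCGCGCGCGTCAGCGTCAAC
SMARCD2: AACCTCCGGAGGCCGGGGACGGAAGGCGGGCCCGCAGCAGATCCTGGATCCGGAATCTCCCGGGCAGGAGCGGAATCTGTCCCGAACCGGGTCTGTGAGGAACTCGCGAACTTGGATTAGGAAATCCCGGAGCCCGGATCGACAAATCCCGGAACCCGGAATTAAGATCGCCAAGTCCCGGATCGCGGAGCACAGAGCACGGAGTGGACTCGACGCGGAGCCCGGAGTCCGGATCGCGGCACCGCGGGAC
DPF1: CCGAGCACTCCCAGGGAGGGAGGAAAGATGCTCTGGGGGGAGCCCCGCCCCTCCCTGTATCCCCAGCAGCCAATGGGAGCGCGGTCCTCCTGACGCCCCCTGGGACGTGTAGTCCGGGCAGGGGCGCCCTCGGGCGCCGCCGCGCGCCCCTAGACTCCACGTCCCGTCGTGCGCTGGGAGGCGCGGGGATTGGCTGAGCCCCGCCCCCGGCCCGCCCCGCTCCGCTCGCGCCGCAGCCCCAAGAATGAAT
BICRA: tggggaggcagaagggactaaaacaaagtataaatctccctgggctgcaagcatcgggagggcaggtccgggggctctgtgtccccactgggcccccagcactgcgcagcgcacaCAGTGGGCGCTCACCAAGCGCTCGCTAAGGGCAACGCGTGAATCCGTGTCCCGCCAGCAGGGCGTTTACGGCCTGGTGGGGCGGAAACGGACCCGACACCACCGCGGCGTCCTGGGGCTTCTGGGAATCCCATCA
SMARCA4: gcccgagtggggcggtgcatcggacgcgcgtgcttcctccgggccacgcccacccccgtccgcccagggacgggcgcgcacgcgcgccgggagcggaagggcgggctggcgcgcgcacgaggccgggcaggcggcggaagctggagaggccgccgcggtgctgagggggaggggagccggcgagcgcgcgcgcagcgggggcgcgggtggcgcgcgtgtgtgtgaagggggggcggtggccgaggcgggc
ARID1A: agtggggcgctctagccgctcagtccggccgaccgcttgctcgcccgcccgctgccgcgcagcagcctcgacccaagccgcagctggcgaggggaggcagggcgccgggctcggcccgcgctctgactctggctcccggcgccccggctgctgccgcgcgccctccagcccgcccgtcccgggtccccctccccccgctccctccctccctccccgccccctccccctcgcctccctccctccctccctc
In SMARCB1 the peak took in the last 66 bases before the start, a stretch rich in CG pairs. It took in 135 bases in BICRA and all 250 in SMARCD2 and DPF1. The SMARCA4 and ARID1A stretches lie in no peak, although over the 300 bases from 250 before to 50 after the start their G + C content was 81.3% and 78%, against 61.7% for SMARCB1, 68% for BICRA, 68.3% for SMARCD2 and 75.3% for DPF1.

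Most SWI/SNF genes carried S9.6 signal at a boundary, meaning at least 1 base of a peak within 1000 bp of either end of the gene span. This held for 20 of the 30 genes (66.7%, 95% Wilson interval 48.8 to 80.8), against a background of 40.1% of all protein-coding genes (8001 of 19974). With the 22878 peaks of highest total signal alone it held for 13 of 30 (43.3%), against 30.4%, which brings the shares closer together. A further 5 genes had peaks inside the span only, so that 25 of 30 (83.3%, 66.4 to 92.7) had a peak over the gene or its 1000 bp flanks, against 60.4% of all protein-coding genes. The remaining 5, ARID1A, ARID2, PHF10, BRD7 and SMARCE1, had none. Together the genes held 87 peaks, 23 at boundaries and 64 inside. No peak was counted for 2 of these genes.

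SWI/SNF genes are longer than most, with a median span of 52 kb against 24.2 kb, and longer genes have more room for a peak inside. Among the 13664 protein-coding genes within the length range of the SWI/SNF genes, 41.3% had a boundary peak and 66.7% had any peak. These stand beside 66.7% and 83.3% of the SWI/SNF genes. By length class, all 4 SWI/SNF genes of 10 to 20 kb had a boundary peak, against 44.3% of protein-coding genes of that length. So did 6 of 10 at 20 to 50 kb (43.6%), 4 of 6 at 50 to 100 kb (40.7%) and 6 of 10 at 100 kb or more (33.2%). In the same classes, any peak was found at all 4 (58.2%), 8 of 10 (63.7%), 4 of 6 (69.5%) and 9 of 10 (79.2%). The any-peak share of the SWI/SNF genes thus lay nearer the background in the longer classes, and slightly under it at 50 to 100 kb.

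Other ATP-dependent remodellers had like shares. A boundary peak was found for 7 of 11 ISWI genes (63.6%), 13 of 20 CHD and NuRD genes (65%) and 12 of 18 INO80 and SRCAP/TIP60 genes (66.7%). Of 21 genes of the Polycomb complexes, which oppose SWI/SNF at many promoters, 7 had one (33.3%, 17.2 to 54.6). The highest boundary peaks were those of CHRAC1 (maximum coverage 12) and BAZ1B (7) for ISWI, and of GATAD2A (13) and CHD8 (7) for CHD and NuRD. For INO80 and SRCAP/TIP60 they were at SRCAP (12) and RUVBL2 (8), and for Polycomb the highest was at SUZ12 (7). These other lists serve as a frame, and no difference between lists was tested.

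**Figure D1:**
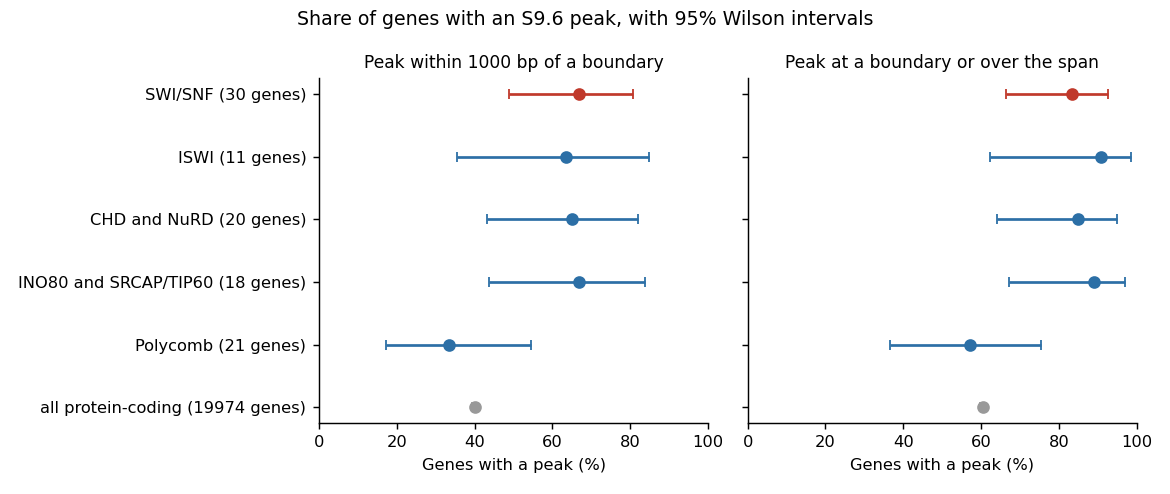
Share of genes (%, horizontal axis) with an S9.6 peak within 1000 bp of a gene boundary (left) or over the gene or its 1000 bp flanks (right), for SWI/SNF genes, 4 other chromatin gene lists and all protein-coding genes; points are shares and bars are 95% Wilson intervals. SWI/SNF stands at 66.7% and 83.3%, close to the other remodellers, and all protein-coding genes stand at 40.1% and 60.4%.

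Boundary peaks of SWI/SNF genes were of middling height. Among the 20 genes with one, the median of the highest boundary maximum was 4, equal to that of all 8001 protein-coding genes with a boundary peak. The maximum was 2 at 3 genes, 3 at 5 genes, 4 at 7 genes, 5 at 4 genes and 6 at 1 gene. Thus 5 of 20 (25%) reached 5 or more, against 36.1% of the 8001, and none reached 10, against 5.3% (424 genes). A boundary peak with a maximum of 3 or more was present at 17 of 30 SWI/SNF genes (56.7%), against 32.2% of all protein-coding genes. Peaks inside SWI/SNF genes were lower, with a maximum of 2 at 40 of 64, and 1 of the 64 reached 5 or more. Inside peaks of other genes were not counted apart. Over all 87 SWI/SNF peaks, 51.7% reached at most 2 and 6.9% reached 5 or more. These shares were 49.5% and 11.7% over the 28364 peaks at or over protein-coding genes.

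**Figure D2:**
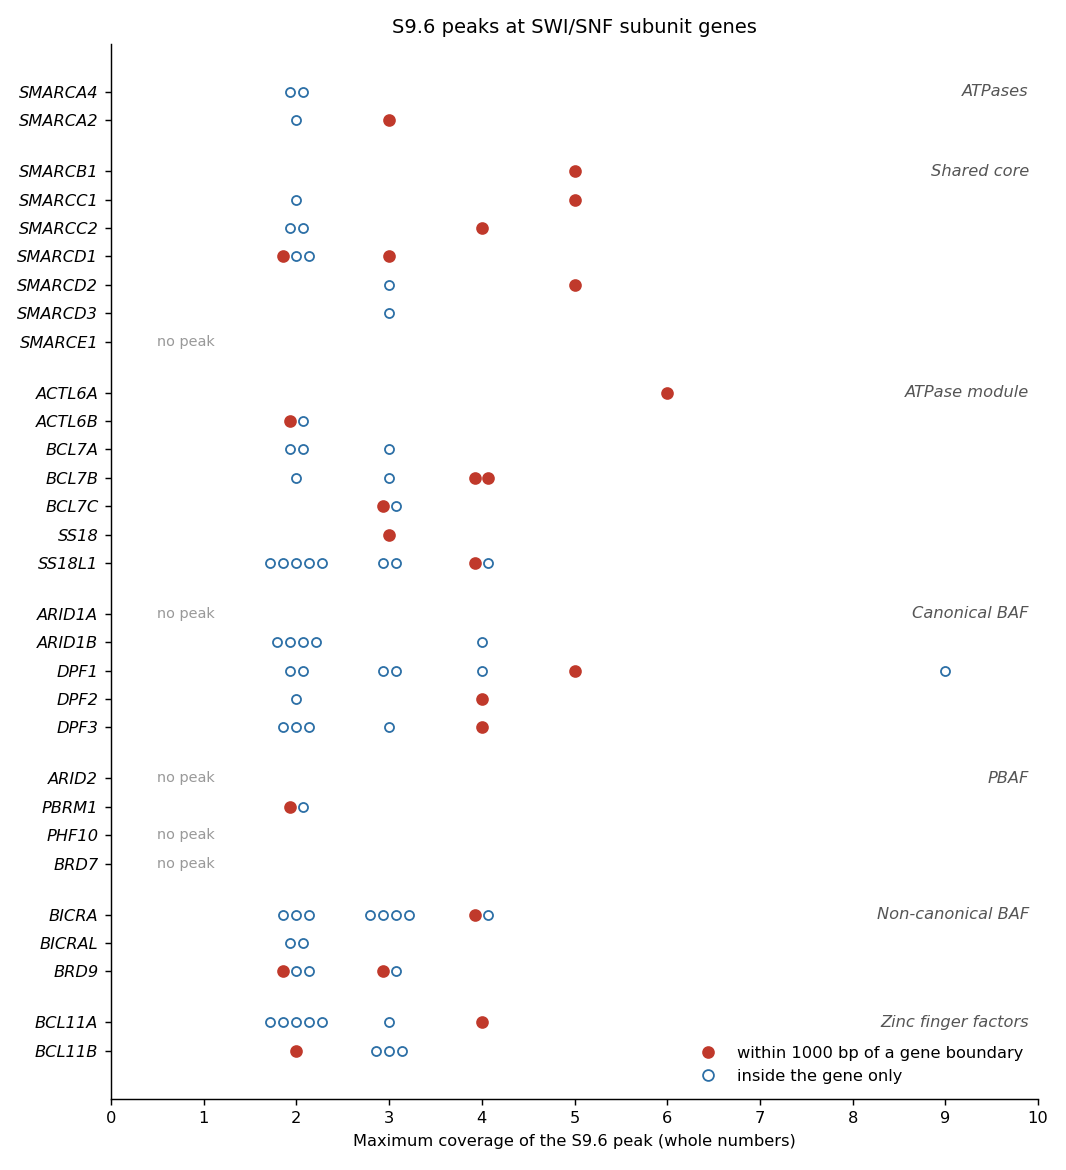
Maximum coverage (horizontal axis, whole numbers) of each of the 87 S9.6 peaks at the 30 SWI/SNF genes (rows, grouped by role); each point is a peak, filled within 1000 bp of a gene boundary and open inside the gene only, and points of equal height are spread sideways. Filled points lie between 2 and 6, most open points at 2 or 3, and the single point at 9 is inside DPF1.

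Of the ATPase genes, SMARCA2 had a boundary peak and SMARCA4 did not, but the SMARCA2 peak no longer counted with a 500 bp window or when placed by its summit. SMARCA4 spans 101 kb of chromosome 19, from 10961030 to 11062273. Its boundaries were free of peaks, and 2 lay inside. They lay at 10990883 to 10991567 (total signal 852) and 11019325 to 11020130 (total signal 1095), each with a maximum coverage of 2. The nearer peak began 29853 bp inside the start, and beyond the end the next peak lay 27124 bp away. Around it, 37 of the 68 protein-coding genes within 1 Mb (54.4%) had a boundary peak.

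SMARCA2, on chromosome 9 from 2015347 to 2193620, had a peak at its start, at 2015958 to 2017229. It was 1272 bp wide with a total signal of 2201 and a maximum of 3, and it began 611 bp inside the gene with its summit 1218 bp from the start. A second peak, at 2158511 to 2159187 with a maximum of 2, lay far inside the gene, with its summit 211 bp past another annotated SMARCA2 start, where shorter transcripts begin. SMARCA2, with 4 annotated starts, thus had 2 peaks that each lay within 1000 bp of one. SMARCA4, with only 2 annotated starts, had none within 1000 bp of either. The SMARCA2 peaks were low, with maxima of 3 and 2. The counting intervals concern peak heights and do not measure this difference in position, which was not tested.

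Genes of the core subunits, the SMARCC, SMARCD, SMARCB1 and SMARCE1 proteins, had boundary peaks in 5 of 7 cases (71.4%, 35.9 to 91.8). That interval takes in the 40.1% of all protein-coding genes. Non-canonical BAF lacks SMARCB1 and SMARCE1. SMARCB1, a tumour suppressor lost in rhabdoid tumours, had 1 peak, at 23786900 to 23787426 on chromosome 22 over its start, with a total signal of 1619 and a maximum of 5. Its summit lay 73 bp inside the gene. The scaffold genes SMARCC1 and SMARCC2 each had a peak just beyond the upper end of the span. That of SMARCC1, on chromosome 3 at 47781900 to 47782373, reached 5, and that of SMARCC2, on chromosome 12 at 56189745 to 56190332, reached 4 and also touched a tRNA gene, TRS-CGA4-1.

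The SMARCD genes encode interchangeable adaptors that link the complex to transcription factors. SMARCD2, on chromosome 17, had a peak of 5 at 63842686 to 63843609, total signal 2464, lying wholly upstream of the span and directly next to it. SMARCD1, on chromosome 12, had 4 peaks in 15.4 kb: 1 of 3 over its start, 1 of 2 beyond its end and 2 of 2 inside. SMARCD3, a form known from heart muscle and neurons, had none at a boundary. Its single peak, at 151248029 to 151248601 on chromosome 7 with a maximum of 3, lay 528 bp, by summit, past an internal annotated start. SMARCE1, a DNA-binding core subunit on chromosome 17, had none, and the nearest peak lay 39437 bp beyond its end.

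Subunits that bind the ATPase had boundary peaks at 6 of 7 genes (85.7%, 48.7 to 97.4), against 40.1% of all protein-coding genes. ACTL6A, the actin-related protein of dividing cells, had the highest boundary peak of all SWI/SNF genes and no other: a maximum of 6 at 179562862 to 179563194 on chromosome 3. At 333 bp it was the narrowest of the 87 peaks. ACTL6B, its neuronal counterpart, had a peak of 2 inside and a peak of 2 beyond its end that also touched the boundary of TFR2, a transferrin receptor gene, and none at its start.

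BCL7B, on chromosome 7, had 4 peaks in 21.3 kb. Those at 73557144 to 73557622 and 73557725 to 73558543, either side of the start, both reached 4, with totals of 1091 and 2064. BCL7C had a peak of 3 at its start, which the microRNA gene MIR762 shares, and BCL7A had 3 peaks inside, of which the nearest to the start began 2269 bp from it. SS18, known for its fusion to SSX genes in synovial sarcoma, had 1 peak of 3 just inside its start on chromosome 18, at 26090479 to 26091217.

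SS18L1 (CREST), the neuronal counterpart of SS18, had 9 peaks in 38.7 kb. Of these, 8 lay inside, with maxima of 2 to 4, and 1 of 4 lay beyond its end, shared with the neighbouring gene MTG2. The first inside peak began 1012 bp past the start, just outside the 1000 bp window, while the farthest peak still counted as a boundary peak, beyond the end of BRD9, lay 969 bp from the span.

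In canonical BAF, the ARID1 and DPF genes stood apart. ARID1A and ARID1B encode the large mutually exclusive subunits that hold the complex together, and ARID1A is among the subunits most often mutated in cancer. ARID1A, on chromosome 1 from 26696015 to 26782104, had no peak in the window. The nearest, at 26693992 to 26694484 with a maximum of 2, ended 1531 bp before its start, and 15 of 53 protein-coding neighbours within 1 Mb (28.3%) had a boundary peak. ARID1B, on chromosome 6, had 5 peaks in a 435 kb span, none within 51532 bp of its start. The highest, at 157021547 to 157022185, reached 4 with a total signal of 1445, and the others reached 2.

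The DPF genes encode paired PHD finger subunits that bind modified histone tails. Each of the 3 had a peak at its start, as did 36% of protein-coding genes with known strand. DPF2, the widely expressed form, had a peak of 4 at 65333368 to 65334325 on chromosome 11, which covers all 300 bases around the start. DPF3, known from heart and muscle, had a peak of 4 at 72893682 to 72894303 on chromosome 14 and 4 lower peaks inside its 285 kb span.

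DPF1, known as a neuronal form, had 7 peaks in 18.7 kb on chromosome 19, which is 33.8 peaks per 100 kb of window. Of the protein-coding genes in the same length range, 0.571% had as many or more per 100 kb, and the median of these genes was 1.87. The peak over its start, at 38229676 to 38230032, reached 5 with a total of 828. The tallest peak of any SWI/SNF gene lay inside DPF1, at 38222516 to 38225126, with a width of 2611 bp, a total signal of 5796 and a maximum of 9. Among the 45756 peaks, 143 (0.313%) were as wide or wider and 458 (1%) had as high a total. Its summit lay 5269 bp from the start. The surroundings were rich in peaks too, with a boundary peak at 34 of 47 protein-coding neighbours within 1 Mb (72.3%).

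Of the genes for PBAF subunits, 1 of 4 had a peak. PBAF differs from BAF by ARID2, PBRM1, PHF10 and BRD7, and 3 of these 4 genes had no peak at all. PBRM1, a bromodomain subunit often lost in kidney cancer, had a peak of 2 at 52686001 to 52686982 on chromosome 3. It lay outside the span by 88 bp and is shared with GNL3, whose boundary it also touches. A second PBRM1 peak, also of 2, lay inside the gene. ARID2 had its nearest peak, with a maximum of 4, 1766 bp beyond the lower end of its 178 kb span, and BRD7 had one of 3 at 2655 bp beyond its end. The nearest peak to PHF10 was 7662 bp upstream of its start. With 4 genes the share is loose (25%, 4.56 to 69.9). Of all protein-coding genes, 40.1% had a boundary peak and 60.4% had any peak, and both lie within that interval. All 4 PBAF genes are longer than 20 kb, however. Of protein-coding genes of 20 kb or more, 39.6% had a boundary peak and 70% had any peak, the latter at the upper limit of the interval.

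Non-canonical BAF subunits BICRA, BICRAL and BRD9 all had peaks, as did 60.4% of all protein-coding genes. BICRA, also called GLTSCR1, is the scaffold of this form and had 9 peaks in 95.1 kb on chromosome 19. The peak at its start, 47608061 to 47609006, reached 4 with a total signal of 1960 and was shared with the antisense gene BICRA-AS2, and the other 8 reached 2 to 4. Its paralogue BICRAL, on chromosome 6, had no boundary peak and 2 inside peaks of 2, the first with its summit 955 bp past an internal annotated start. BRD9, a bromodomain subunit on chromosome 5, had 5 peaks in 29.1 kb. The one at its start, 892065 to 892811, reached 3 and also touched a boundary of TRIP13, its neighbour, and the one beyond its end reached 2.

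The zinc finger factors BCL11A and BCL11B, which join BAF in blood and neural cells, each had a boundary peak upstream of the start. That of BCL11A, on chromosome 2 at 60554292 to 60555797, was 1506 bp wide with a total signal of 2402 and a maximum of 4. BCL11A had 6 more peaks inside, of which 1 had its summit 260 bp past an internal annotated start. That of BCL11B, on chromosome 14 at 99272677 to 99273229, reached 2 with a total of 781, and its 3 inside peaks reached 3.

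**Figure D3:**
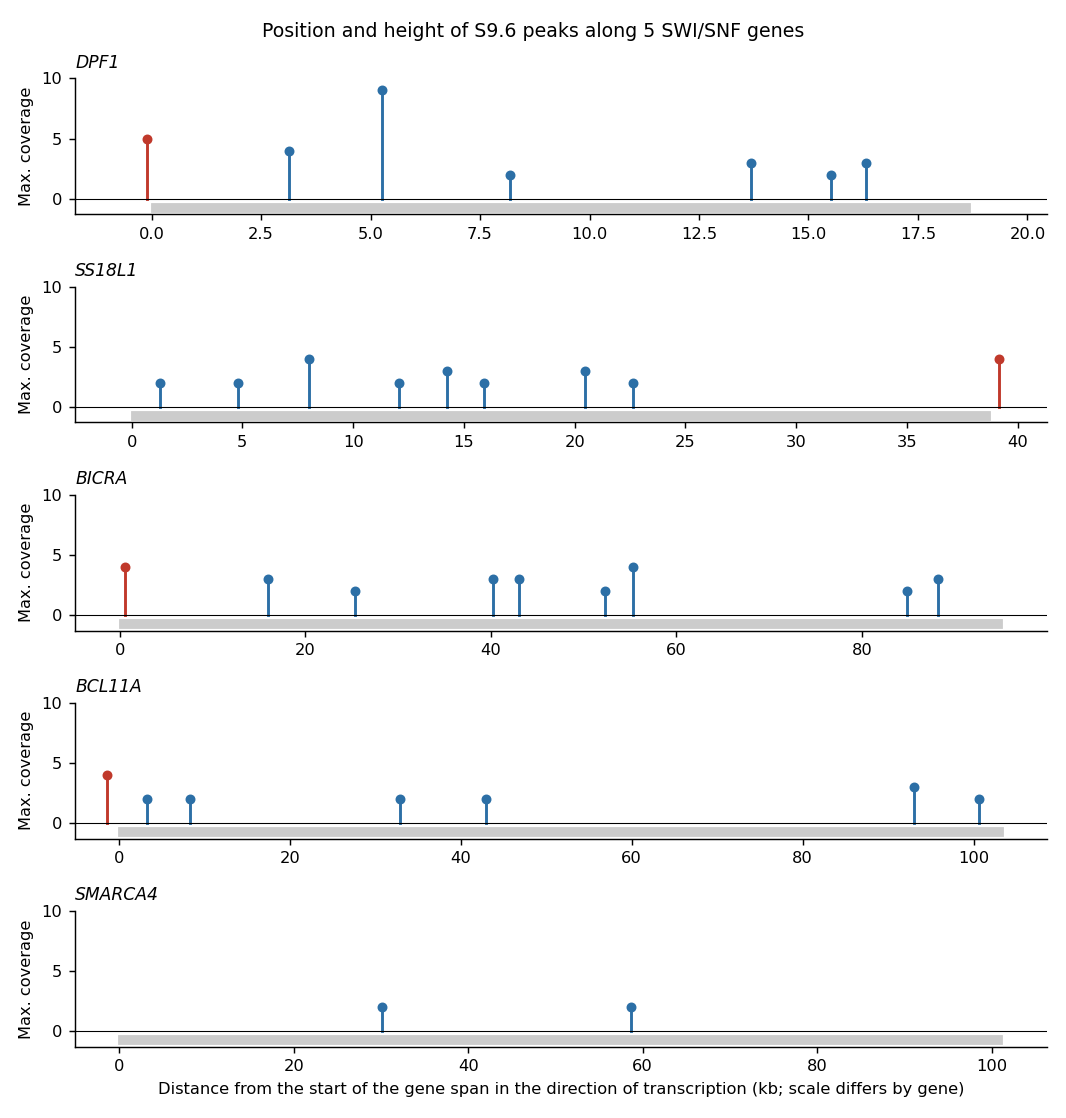
Summits of S9.6 peaks along DPF1, SS18L1, BICRA, BCL11A and SMARCA4, as distance from the start of the gene span (kb, horizontal axis, a separate scale for each gene) against maximum coverage (vertical axis); grey bars are gene spans, red marks peaks within 1000 bp of a boundary and blue marks inside peaks. DPF1, BICRA and BCL11A have a red peak at the start, SS18L1 has one past its end, and SMARCA4 has 2 blue peaks of height 2.

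Groups of paralogues differed in how many members had a boundary peak. Since 66.7% of the 30 genes had one, some groups of 2 or 3 would have it at every member without any likeness. Whether paralogues are alike was not tested. Of 10 groups of paralogous subunits, 5 had a boundary peak at every member (SMARCC, ACTL6, DPF, SS18 and BCL11), 4 at some members (SMARCA, SMARCD, BCL7 and BICRA) and 1 at none (ARID1). The tally depended on the setting. It was 3, 6 and 1 with peaks of maximum coverage 3 or more, where ACTL6B and BCL11B lost theirs, and 4, 4 and 2 both with a 500 bp window, where ACTL6B and SMARCA2 did, and by summit, where BCL11A and SMARCA2 did. With the peaks of highest total signal it was 0, 8 and 2.

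Strand was available for 26 of the 30 genes from the RefSeq promoter table. SMARCC1, SMARCC2, ACTL6A and ARID2 have no entry there. Of the 26, 15 had a peak within 1000 bp of the start of the span (57.7%, 38.9 to 74.5), against 36% of 15812 protein-coding genes with strand. A peak within 1000 bp of the end was found for 4 genes, SMARCD1, ACTL6B, SS18L1 and BRD9 (15.4%, 6.15 to 33.5), against 11.4%. The end share is thus near the background. When all annotated starts were taken, SMARCD3 and BICRAL were added, giving 17 of 26 (65.4%) against 38.4%, and 6 of the 64 inside peaks lay within 1000 bp of an internal or second start.

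The 16 start peaks of these 15 genes were placed on both sides of the start, with the summit upstream of the span in 8 and inside it in 8. Their summits lay between 37 bp (SMARCD1) and 1353 bp (BCL11A) from the start, with a median of 324.5 bp. Of all 23 boundary peaks, 11 lay wholly outside the span of the SWI/SNF gene and 7 also touched the boundary of another gene. For those 7, at SMARCC2, ACTL6B, BCL7C, SS18L1, PBRM1, BICRA and BRD9, the list does not tell which gene the signal belongs to, since S9.6 peaks carry no strand.

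Promoters of SWI/SNF genes were rich in G and C. Over 300 bases, from 250 before to 50 after the outermost start, the median G + C content was 68.2% for the 26 SWI/SNF genes and 62.7% for all 15812. Over all promoters, those with a start peak had a median of 66% and those without one 60%, and the share with a start peak rose from 5.34% below 40% G + C to 46.5% at 60 to 70%, with 44.7% above that. The SWI/SNF medians stood in the other order. The 15 genes with a start peak had a median of 67.7% (55.7 to 80.3). The 11 without one had 73.3% (37.7 to 85.3), and these ranges overlap almost fully. By class, a start peak was found at 3 of 4 SWI/SNF promoters at 50 to 60% (30.8% of all promoters) and 7 of 10 at 60 to 70% (46.5%). Of the 11 SWI/SNF promoters at 70% or above, 5 had a start peak, near the 44.7% of all promoters in that class. Those without one were PHF10 (85.3%), SMARCA4 (81.3%), BCL7A (80.3%), SS18L1 (80%), ARID1A (78%) and BRD7 (73.3%). The lowest of the 26 was ARID1B at 37.7%, also without a start peak.

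**Figure D4:**
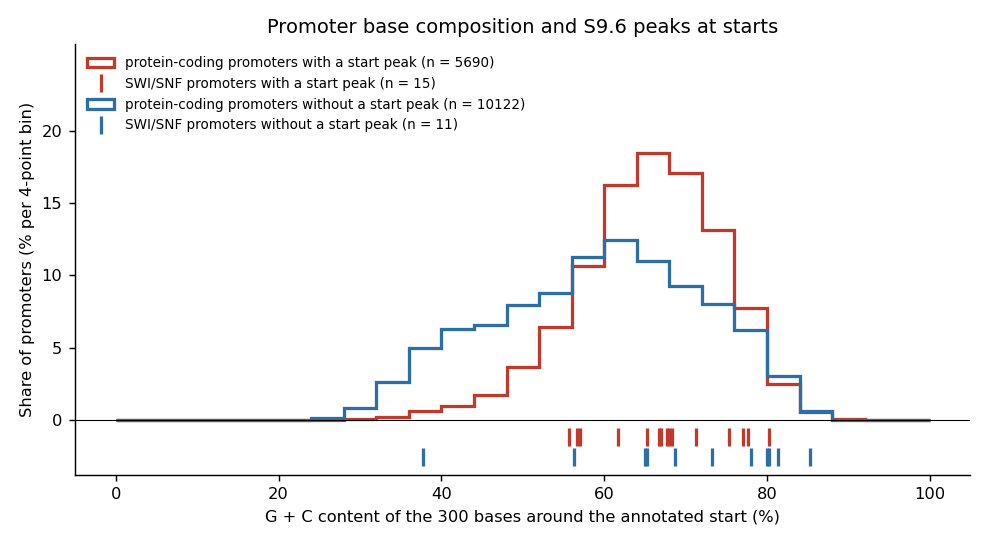
G + C content (%, horizontal axis) of the 300 bases around the start of protein-coding genes with (red) and without (blue) an S9.6 peak within 1000 bp of the start, as the share of promoters in each bin (vertical axis); ticks under the axis are the 26 SWI/SNF promoters in the same colours. The red outline lies to the right of the blue one, with medians of 66% and 60%, while the red and blue ticks of the SWI/SNF genes overlap.

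Excess of G over C on the coding strand of transcribed DNA is known to favour R-loops behind the polymerase. GC skew, the difference of G and C counts over their sum, was measured in the same 300 bases. Of these, 250 lie before the annotated start and 50 after it, so the skew says little of the DNA transcribed from that start. The median skew was 0.019 over the 26 SWI/SNF promoters and 0.008 over all promoters. It was above 0 in 10 of the 15 with a start peak and in 5 of the 11 without one, against 52.3% and 50.9% over all promoters. The most skewed were PHF10 (0.383), SMARCA4 (0.221) and SMARCE1 (0.219) towards G and ARID1A (-0.282) towards C. None of these 4 had a start peak, which 36% of all promoters had. Among the next most skewed, ARID1B (-0.186) and ACTL6B (-0.169) had none either, while DPF3 (-0.17), BRD9 (-0.169) and BCL7C (0.112) had one.

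A G-quadruplex motif, written as 4 runs of at least 3 G separated by 1 to 7 bases and searched on both strands, was found in 11 of the 26 SWI/SNF promoters (42.3%), against 30.1% of all 15812. Such motifs can fold into stacked G structures on the strand that an R-loop leaves single. The motif was present in 6 of the 15 SWI/SNF promoters with a start peak (40%) and in 5 of the 11 without one (45.5%), against 34.4% and 27.7% over all promoters. Of those with a start peak, SMARCD1, BCL7B, BCL7C and PBRM1 held it on the coding strand and DPF1, BCL11A and PBRM1 on the other. Of those without one, PHF10, SMARCE1 and SS18L1 held it on the coding strand and ARID1A, BRD7 and SS18L1 on the other. A match describes these letters in this window, of which 250 of the 300 bases lie before the start. No match says nothing of the structure elsewhere.

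The background share varied by chromosome. The 3 SWI/SNF genes on chromosome 6, ARID1B, PHF10 and BICRAL, had no boundary peak, on a chromosome where 16.7% of protein-coding genes had one. All 3 on chromosome 3, SMARCC1, ACTL6A and PBRM1, had one, where the share was 33.1%. Without chromosome 6, 20 of 27 SWI/SNF genes had a boundary peak, against 41.4% of protein-coding genes. On chromosome 12 it was 2 of 4 (40.6%), and on chromosome 19 DPF1 and BICRA had one and SMARCA4 did not (51.3%).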

How the data were processed

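S9.6 CUT&Tag in A549 cells gave 1 peak list of 47810 peaks. The authors' deposited signal values, total signal and maximum coverage, are whole numbers in the layout of SEACR, with no sign of scaling to depth. Per the submitters' processing notes, which assign no roles, the build was GRCh38 and the tools included SEACR 1.3, Bowtie2 2.4.2 and fastp 0.23.2, with bedtools 2.30.0, SAMtools 1.9 and deepTools 3.5.2. Not given in the sources used here are the peak threshold, any use of IgG, and how duplicates or reads with several matches were handled. Total depth is unknown. The 2054 peaks outside chromosomes 1 to 22 and X, among them patches and alternate haplotypes, were left out. Gene spans, annotated starts and promoter sequences came from RefSeq tables of GRCh38.p14. Overlaps were computed with Python 3.11.15, pandas 2.3.3 and SciPy 1.17.1, and checked on simulated peaks. A summit is the middle of the authors' maximum region. The members, roles and lists were chosen with earlier results of these data known. All 30 SWI/SNF genes are named, with the 2 highest of each other list, of which 1 is not reported here. Genes are not replicates, and no test was made. Alternatives were stricter peaks, other windows, summits and other gene backgrounds.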

Additional observations from a re-analysis of the deposited data

How the results depend on the processing

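The SWI/SNF boundary count of 20 was 17 with peaks of maximum coverage 3 or more (ACTL6B, PBRM1 and BCL11B lost), 18 with a 500 bp window (SMARCA2 and ACTL6B lost), 22 with a 2000 bp window (which adds ARID1A and ARID2) and 18 by summit (SMARCA2 and BCL11A lost). It moved most with the 22878 peaks of highest total signal, to 13 (43.3%), where SMARCC1, ACTL6B, BCL7C, SS18, SS18L1, DPF1 and BCL11B lost theirs. The number of SWI/SNF peaks, 87, was 42 at maximum coverage 3 or more and 45 in the upper group by total. In those settings, in the same order as above, the share of all protein-coding genes with a boundary peak was 32.2%, 35.3%, 45.8%, 36.7% and 30.4%, and with any peak 44.6%, 59.3%, 62.2%, 59.6% and 45.5%. Genes in the SWI/SNF length range gave 41.3% and 66.7%, genes of 20 kb or more 70% for any peak, and leaving out chromosome 6, chosen after the data were seen, 41.4% and 61.9%. The median highest boundary maximum was 4 in every setting in which it was computed. Maxima of 2 to 6 are too low to rank genes. No paired analysis was possible because there was 1 library.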
